A study of Mus musculus with 4 samples.

Results

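The cytochrome P450 genes of the mouse kidney were compared between control animals and animals in which membranous nephropathy (MN) had been induced, that is, immune deposits under the podocytes of the glomerulus. The genes were taken by name alone: every array probe whose gene name begins with Cyp and a digit, without 7 genes of vitamin D activation and breakdown, sterol synthesis and steroid hormone synthesis (Cyp27b1, Cyp24a1, Cyp51, Cyp11a1, Cyp11b1, Cyp11b2 and Cyp17a1). This gave 91 genes with 116 probes, out of 34607 gene names and 55681 non-control probes. By family number, 3 genes belonged to Cyp1, 46 to Cyp2, 8 to Cyp3, 22 to Cyp4 and 12 to other families.

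RNA was from whole kidneys of female BALB/C mice that were 6 weeks old when the study began. Animals of both groups were first immunized with 0.2 mg of cationic bovine serum albumin (cBSA) in complete Freund's adjuvant, so the controls carried this immunization too. After 2 weeks the MN group was given cBSA into the vein at 13 mg/kg, 3 times a week for 6 weeks, and the control group was given vehicle on those days, called saline in one label and PBS in another. There were 2 control and 2 MN samples, each on its own 1-colour Agilent array, and the labels do not say whether each came from a separate animal, so p-values measure only the spread between these samples. Slide 1 held replicate 1 of both groups and slide 2 held replicate 2.

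Cytochromes P450 are haem enzymes that insert an oxygen atom into fatty acids, sterols, retinoids, steroids and foreign compounds. Most sit in the endoplasmic reticulum and receive electrons from the reductase Por. The kidney is rich in them, above all in the proximal tubule, where Cyp4a enzymes hydroxylate the end of arachidonic acid and Cyp2c and Cyp2j enzymes make its epoxides, lipids that act on vessel tone and on salt transport. Cyp26 enzymes clear retinoic acid, Cyp1 enzymes answer to the aryl hydrocarbon receptor, and Cyp2e1 oxidizes ethanol and small solvents.

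Many P450 genes have near-identical copies, and the sequences show how far a probe can tell them apart. The probe below, which spans an exon junction in the coding part of Cyp2a4 (mm9, chr7:27098659-27099724, plus strand), lists transcripts of both Cyp2a4 and Cyp2a5, as does the other Cyp2a4 probe (mm9, chr7:27099880-27099939).
Cyp2a4 probe: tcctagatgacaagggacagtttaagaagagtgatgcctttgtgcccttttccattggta

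The next pair are probes over the same coding stretch of neighbouring genes, Cyp4a10 (mm9, chr4:115198463-115198522) and Cyp4a31 (mm9, chr4:115243923-115243982), both on the plus strand. They are identical at 54 of 60 bases and differ at 6, shown in capitals.
Cyp4a10 probe: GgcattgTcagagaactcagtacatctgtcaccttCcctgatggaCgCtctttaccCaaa
Cyp4a31 probe: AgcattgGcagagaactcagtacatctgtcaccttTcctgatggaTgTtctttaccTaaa

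The Cyp4a10 probe also lists a transcript of Cyp4a32. Of the 116 probes, 112 list a RefSeq transcript and 11 list transcripts of more than 1 gene. For Cyp2a4 and for Cyp4a12a, whose probes list a near relative as well, which relative gave the signal is uncertain. The brightest probes of Cyp4a10, Cyp4a14, Cyp4a31, Cyp4a32 and Cyp4a12b list only their own gene.

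Promoters were read for 69 of the 91 genes from a RefSeq promoter table (GRCm38.p6). The 250 bases before the start of Cyp2a4 (chr7:26306942-26307191) and of Cyp2a5 (chr7:26835089-26835338), both on the plus strand, are shown because the probes cannot separate these genes. Capitals mark TTGCATAA, an octamer searched for after the Cyp2a4 promoter had been read.
Cyp2a4 promoter: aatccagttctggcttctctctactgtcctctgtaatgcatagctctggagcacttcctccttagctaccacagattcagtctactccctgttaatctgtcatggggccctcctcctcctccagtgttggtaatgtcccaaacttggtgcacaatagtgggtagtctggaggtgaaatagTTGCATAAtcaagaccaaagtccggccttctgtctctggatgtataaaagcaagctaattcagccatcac
Cyp2a5 promoter: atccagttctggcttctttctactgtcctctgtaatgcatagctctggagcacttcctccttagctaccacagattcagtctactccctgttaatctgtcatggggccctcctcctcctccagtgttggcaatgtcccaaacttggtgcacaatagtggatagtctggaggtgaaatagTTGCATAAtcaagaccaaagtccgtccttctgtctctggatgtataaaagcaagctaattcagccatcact

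Aligned with an offset of 1 base, the Cyp2a4 and Cyp2a5 promoters were identical at 245 of 249 positions (98.4%). TTGCATAA, on either strand, was in 0.743% of the 32851 promoters of 300 bases, and among the P450 genes also in those of Cyp2b10, Cyp2b19, Cyp2b23 and Cyp4f14. The D-box sequences TTATGTAA and TTACGTAA are letters bound by the clock output factors Dbp, Tef and Hlf. They were in 0.938% and 0.119% of promoters and in none of those read for the P450 genes. Only these exact letters were counted as a D-box. TTGCATAA, read on the opposite strand, is close to TTATGTAA, and binding to it was not tested. CACGTG, the E-box, was in 7.15% of promoters, Cyp2j6 and Cyp4v3 included, and AGGNCA repeated after 1 base, a PPAR-type repeat, in 0.381%, Cyp2d9, Cyp2d10 and Cyp2d40 included. A match describes the letters only.

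The promoter of Cyp26a1, which breaks down retinoic acid, is shown because it holds the repeat that retinoic acid receptors are known to bind (GRCm38.p6, chr19:37697558-37697807, plus strand). Capitals mark AGTTCA repeated after 5 bases of any kind, here on the opposite strand. This repeat was in 0.0244% of promoters, 8 in all, and Cyp26a1 was the only P450 gene among them.
Cyp26a1 promoter: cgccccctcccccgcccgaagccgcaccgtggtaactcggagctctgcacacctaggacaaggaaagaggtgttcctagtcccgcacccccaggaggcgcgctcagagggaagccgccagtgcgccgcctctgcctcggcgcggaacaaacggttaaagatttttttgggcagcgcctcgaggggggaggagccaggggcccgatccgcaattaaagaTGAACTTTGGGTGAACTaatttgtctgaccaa

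The kidney samples gave signal for most of the P450 genes. Of the 91, 65 were tested because a probe stood well above background on both control arrays or on both MN arrays, and 26 were not tested. The tested genes were 2 of the 3 Cyp1 genes, 36 of 46 Cyp2 genes, 1 of 8 Cyp3 genes, 18 of 22 Cyp4 genes and 8 of 12 in other families. All but 2 of the 65 were well above background on all 4 arrays, and the exceptions, Cyp2g1 and Cyp4f40, were so on 1 of the 2 MN arrays. No P450 gene was well above background in both arrays of one group and in neither array of the other.

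The genes without a measurable signal included several that are best known from liver. Cyp1a2, Cyp3a25 and Cyp8b1, which shapes the bile acid pool, were not well above background on any array, and Cyp7a1, the rate-limiting enzyme of bile acid synthesis, was so on 1. For Cyp3a11, a main drug-metabolizing P450 of mouse liver, the better of its 2 probes was well above background on control array 2 and MN array 2, which is 1 array of each group and too few for a test. Cyp19a1, the aromatase that makes oestrogens, was well above background on 1 array. In all, the best probe was well above background on 0 arrays for 15 of the 91 genes, on 1 array for 9 and on 2 arrays for 2. For these genes the arrays give only a bound, and a difference was not detectable.

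The comparison asked which P450 genes differed between MN and control kidneys. No P450 gene passed the threshold, and most differences were small. Levels below are log2 signals relative to the 75th percentile of the same array, and differences are MN minus control on that log2 scale. Among the 65 genes, 0 were higher and 0 lower at an adjusted p under 0.05 (limma, two-sided, Benjamini-Hochberg over 25293 genes, smallest adjusted p = 0.345). The same test called 0.0198% of all genes as higher, 5 in number, and 0% as lower.

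At an unadjusted p under 0.05 in limma, 3 P450 genes were higher (Cyp2a4, Cyp3a13 and Cyp26b1) and 1 was lower (Cyp2u1), beside 3.54% and 3.49% of all genes, so the P450 shares of 4.62% and 1.54% were near the background. Both MN arrays lay above both control arrays for 10 of the 65 genes, against 13.2% of all genes. Both lay below for 17 of the 65, against 19.9% of all genes. With the slide as a block in the fit, an unadjusted p under 0.05 was reached by 6 higher and 4 lower P450 genes, beside 6.29% and 9.05% of all genes, and again 0 passed after adjustment, with a smallest adjusted p of 0.173.

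The median difference of the 65 genes was -0.06, with 27 positive and 38 negative, beside a median of -0.05 and 38.6% positive over all genes tested. Their differences ran from -0.78 to 0.89, and 44 lay within 0.2 of 0. Differences over 0.5 in size were found for 6 genes, which is 9.23% of the P450 genes and 11.7% of all genes. By family group the medians were -0.06 for the 36 Cyp2 genes (13 positive), 0.02 for the 18 Cyp4 genes (9 positive) and -0.13 for the 8 genes of other families (2 positive). The Cyp4 median was -0.06 with normexp background correction, so its sign is not settled. In whole kidney RNA, fewer cells of a type and less RNA per cell cannot be told apart.

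**Figure D1:**
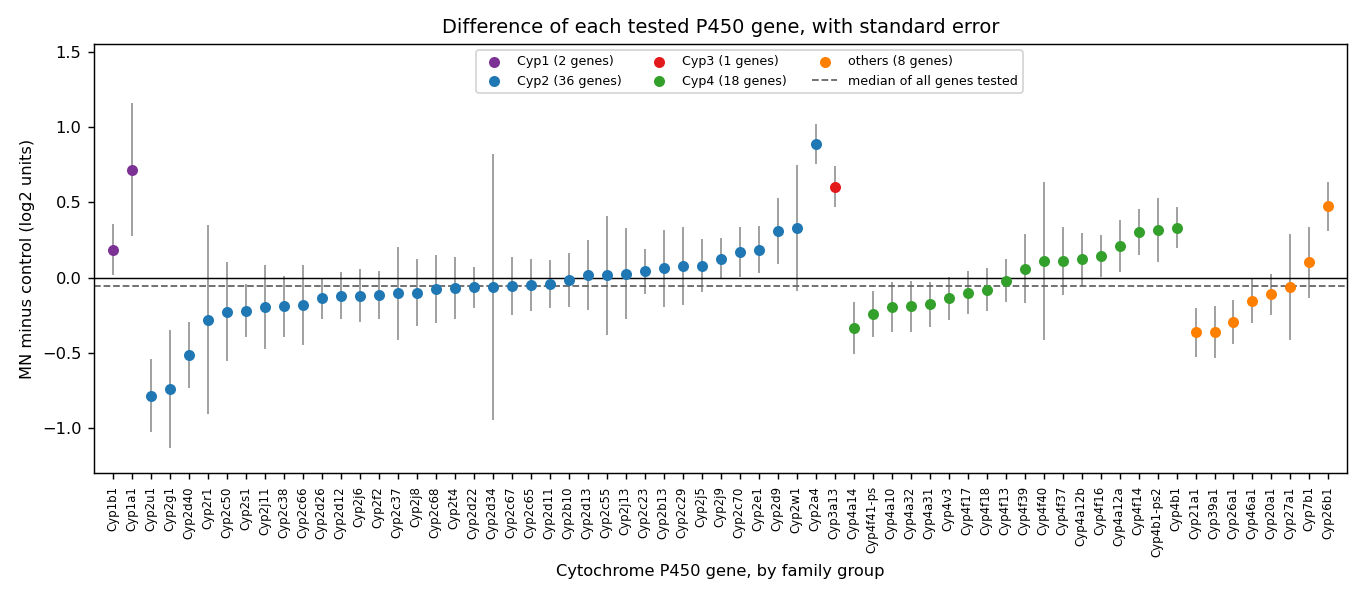
The y axis gives the difference MN minus control in log2 units for each of the 65 tested P450 genes, ordered within family groups along the x axis, with bars for the standard error from limma. Most points lie within 0.2 of 0 and close to the dashed median of all genes (-0.05), with Cyp2a4 (0.89) and Cyp2u1 (-0.78) at the ends.

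Among the P450 genes of foreign compound and steroid metabolism, Cyp2a4 had the highest difference. Cyp2a4 is a steroid hydroxylase and its relative Cyp2a5 hydroxylates coumarin and nicotine. Its log2 level was 4.12 and 4.19 in controls 1 and 2, against 5.03 and 5.05 in MN samples 1 and 2. Both MN arrays lay above both control arrays, by more than the gap between arrays of one group. The difference was 0.89 ± 0.13 (SE, n = 2 per group; 1.85-fold), with an adjusted p of 0.345 in limma with Benjamini-Hochberg adjustment (0.173 to 1 over the alternatives). Within slides 1 and 2 it was 0.91 and 0.86, and with normexp background correction it was 0.94. The other Cyp2a4 probe, whose sequence is printed above, gave 0.96, from 2.70 and 2.44 in control and 3.61 and 3.46 in MN.

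Cyp3a13, of the subfamily that oxidizes many drugs and steroids, was the one Cyp3 gene with a test. Its level was -3.34 and -3.31 in control and -2.78 and -2.66 in MN. The groups did not overlap, and the difference was 0.60 ± 0.14 (1.52-fold; adjusted p = 0.485 in limma, 0.193 to 1 over the alternatives). A second probe gave 0.62. Normexp, whose offset draws dim probes towards 0, gave 0.32, so the size is uncertain.

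The Cyp1 genes answer to the aryl hydrocarbon receptor. Cyp1a1, its classic target, was at -3.36 and -2.26 in control and at -2.32 and -1.87 in MN. The arrays of both groups overlapped between slides, since control array 2 lay above MN array 1, and the difference was 0.71 ± 0.44. Within the slides it was 1.04 and 0.39. Cyp1b1, which oxidizes oestradiol and polycyclic hydrocarbons, differed by 0.18 ± 0.17, with overlapping groups.

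Cyp2e1, the ethanol-oxidizing P450, was at 3.91 and 3.73 in control and 4.08 and 3.93 in MN. Both MN arrays were above both controls by a small margin, and the difference was 0.19 ± 0.16, with 0.06 from a second probe. Cyp2s1, an extrahepatic P450, differed by -0.22 ± 0.18.

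The Cyp2d genes, relatives of the human drug-metabolizing CYP2D enzyme, leaned towards lower values, with a median of -0.06 over 8 tested genes of which 6 were negative, close to the median of all genes. Cyp2d40 was at -2.36 and -2.68 in control and -2.85 and -3.22 in MN. Its groups did not overlap, and the difference was -0.51 ± 0.22 (1.43-fold lower; adjusted p = 0.794 in limma, 0.211 to 1 over the alternatives). Cyp2d26 was at 7.20 and 7.24 in control and at 7.12 and 7.04 in MN, a difference of -0.14 ± 0.13. Cyp2d9, a testosterone hydroxylase, differed by 0.31 ± 0.22 with overlapping groups, and Cyp2d22 by -0.07 ± 0.14.

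Cyp2g1, an olfactory P450, gave -0.74 ± 0.39 from a probe near background, at -4.40 and -3.74 in control and -5.21 and -4.41 in MN. The groups did not overlap, but the nearest arrays of the groups had almost the same level, and 1 of the MN arrays was not well above background. Cyp2c50 showed how far the slides could part, with 0.25 on slide 1 and -0.70 on slide 2, and Cyp2d34 likewise, with -0.51 and 0.39. Cyp2g1, Cyp2c50 and Cyp2d34 were singled out after their values were seen.

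**Figure D2:**
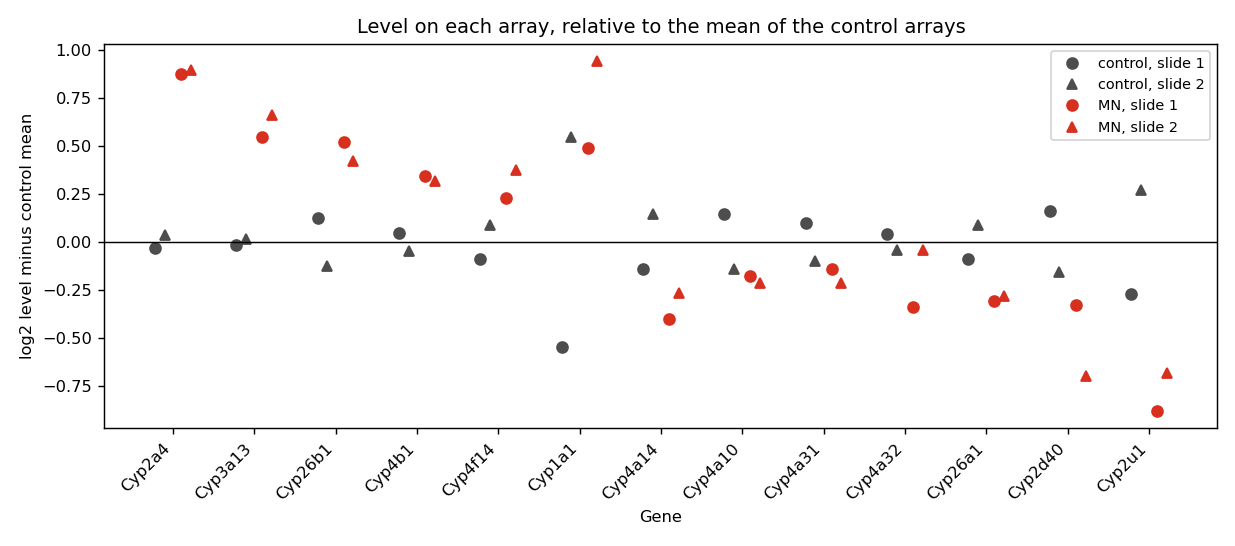
The y axis gives the log2 level on each array minus the mean of the control arrays for 13 P450 genes, with grey points for control and red for MN, circles for slide 1 and triangles for slide 2. For Cyp2a4, Cyp3a13 and Cyp26b1 both red points lie above both grey points, while for Cyp1a1 the groups overlap.

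Genes that hydroxylate the end of fatty acids include the Cyp4a subfamily, whose members Cyp4a10 and Cyp4a14 are textbook targets of the lipid sensor PPAR alpha. Of 6 tested Cyp4a genes, 4 were negative and 2 positive, with a median of -0.18 beside -0.05 over all genes. Cyp4a14 was at 6.38 and 6.67 in control and 6.13 and 6.26 in MN. Both MN arrays lay below both controls, and the difference was -0.33 ± 0.17 (1.26-fold lower; adjusted p = 0.875 in limma, 0.313 to 1 over the alternatives), with -0.26 and -0.41 on the slides.

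Cyp4a10 was at 7.03 and 6.75 in control and 6.71 and 6.68 in MN, with no overlap and a difference of -0.20 ± 0.17. Cyp4a31 was at 6.70 and 6.51 in control and 6.46 and 6.39 in MN, a difference of -0.18 ± 0.15. The differences of Cyp4a10 from its 3 probes were -0.20, -0.21 and -0.24, and those of Cyp4a31 were -0.18, -0.24 and -0.26. The probe pair printed above, with 6 differing bases, gave -0.24 for both genes. For Cyp4a32 the slides parted, with -0.38 on slide 1 and -0.0042 on slide 2.

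Cyp4a12a and Cyp4a12b, the androgen-dependent arachidonic acid hydroxylases of mouse kidney, were on the other side of 0, at 0.21 ± 0.17 and 0.12 ± 0.18, and the Cyp4a12a probe lists transcripts of both. Cyp4a12a was at 1.82 and 1.51 in control and 1.92 and 1.84 in MN. Its groups were apart by less than the gap between the control arrays.

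Cyp4b1 and Cyp4f14 had both MN arrays above both controls. Cyp4b1, a fatty acid hydroxylase that also activates plant and insect toxins, was at 5.28 and 5.19 in control and 5.58 and 5.56 in MN. Its difference was 0.33 ± 0.14 (1.26-fold; adjusted p = 0.778 in limma, 0.299 to 1 over the alternatives). Cyp4f14, a leukotriene hydroxylase, was at 0.27 and 0.44 in control and 0.58 and 0.73 in MN, a difference of 0.30 ± 0.15. The pseudogene Cyp4b1-ps2 gave 0.32 ± 0.21. Other leukotriene and fatty acid hydroxylases were close to 0, with Cyp4f18 at -0.08 ± 0.14, Cyp4f13 at -0.02 ± 0.14 and Cyp4v3 at -0.14 ± 0.14, while the pseudogene Cyp4f41-ps was at -0.24 ± 0.15.

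Epoxygenases of arachidonic acid showed small differences. The 11 tested Cyp2c genes had a median of -0.06 and a range from -0.23 to 0.17. None had groups that did not overlap, where 13.2% of all genes had both MN arrays above both controls and 19.9% below. Cyp2c23, named Cyp2c44 in the files and the main epoxygenase of the subfamily in mouse kidney, was at 0.81 and 0.68 in control and 0.86 and 0.71 in MN. Its groups overlapped and the difference was 0.04 ± 0.15, with a 95% interval of -0.37 to 0.46. The 6 tested Cyp2j genes had a median of -0.04. Cyp2j5, the proximal tubule epoxygenase, was at 0.02 and 0.26 in control and 0.10 and 0.34 in MN, a difference of 0.08 ± 0.18, and Cyp2j9 was at 0.13 ± 0.13.

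Cyp2u1, a fatty acid hydroxylase, had the lowest difference, and its probes disagreed. Its brightest probe (mm9, chr3:130996343-130996402, minus strand) was at 6.88 and 7.42 in control and 6.27 and 6.46 in MN. The groups did not overlap, with a difference of -0.78 ± 0.24 (1.72-fold lower; adjusted p = 0.617 in limma, 0.201 to 1 over the alternatives). Its other probes, both well above background on all arrays, gave 0.00 and 0.08 and were far dimmer. The probe at 0.00 was at -1.49 and -1.25 in control and -1.35 and -1.38 in MN. The probe at 0.08 was at -3.67 and -3.81 in control and -3.63 and -3.69 in MN. The brightest probe lists no RefSeq transcript, and only the probe at 0.08 lists one of Cyp2u1. The low value therefore belongs to 1 of 3 probes, and no P450 gene was lower at an unadjusted p under 0.05 when the probes of each gene were averaged.

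Of the 20 P450 genes with more than 1 probe, 11 had several well above background on all 4 arrays, and in 2 of these, Cyp2u1 and Cyp20a1, the probes gave both signs. Cyp20a1, an orphan P450, was at -0.11 ± 0.14 from its brightest probe and at 0.49 from a dim one. Probes of Cyp2j13, an epoxygenase of mouse kidney, gave 0.03, 0.31 and 1.12. The last of these was at -3.78 and -3.54 in control and -2.49 and -2.58 in MN, the same way on both slides (1.29 and 0.96). The brightest Cyp2j13 probe also lists Cyp2j12.

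**Figure D3:**
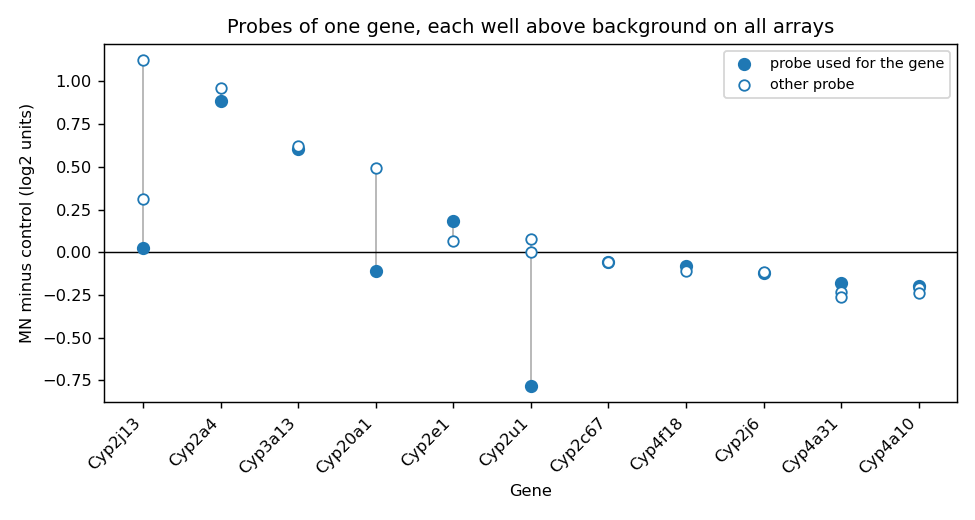
The y axis gives MN minus control in log2 units for each probe of the 11 P450 genes on the x axis that have more than 1 probe well above background on all arrays. The filled points are the brightest probes, used for the gene, and the open points are the others. Probes of Cyp2a4, Cyp3a13, Cyp4a10 and Cyp4a31 lie close together, while those of Cyp2j13, Cyp2u1 and Cyp20a1 are spread.

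The retinoic acid hydroxylases differed from one another in direction. Cyp26b1 was at 1.84 and 1.59 in control and 2.24 and 2.13 in MN. The groups did not overlap, and the difference was 0.47 ± 0.16 (1.39-fold; adjusted p = 0.684 in limma, 0.233 to 1 over the alternatives), with 0.40 and 0.55 on the slides. Cyp26a1, whose promoter is printed above, was at -3.93 and -3.76 in control and -4.15 and -4.13 in MN. It was lower in both MN arrays, with a difference of -0.30 ± 0.14 from a dim probe. Cyp26c1 was not well above background on any array.

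Among P450 genes of sterols and vitamin D, Cyp39a1, an oxysterol hydroxylase, was at 0.32 and 0.37 in control and 0.14 and -0.17 in MN, a difference of -0.36 ± 0.17. Cyp46a1, the cholesterol hydroxylase best known from brain, was at -0.16 ± 0.14. Cyp27a1, a mitochondrial sterol hydroxylase, and Cyp7b1, an oxysterol hydroxylase, gave -0.06 ± 0.35 and 0.10 ± 0.23 with overlapping groups. Cyp2r1, which takes vitamin D through its first hydroxylation, was at 0.80 and 2.25 in control and 0.77 and 1.72 in MN. Its arrays parted by slide and not by group, and the difference of -0.28 ± 0.63 has a 95% interval of -2.02 to 1.46. This interval is from the fit without the slide, so it holds the gap between slides. With the slide as a block the standard error was 0.17.

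Cyp21a1, the steroid hydroxylase of the adrenal cortex, was at -1.12 and -0.91 in control and -1.29 and -1.48 in MN, a difference of -0.36 ± 0.17. Of 7 tested adrenal cortex markers, 6 were negative, where 61.4% of all genes were, and Akr1b7 was among them at -0.58. Cyp21a1 is itself on this list and among the negative ones, so the count is not independent of its value. The summed log2 level of the list was 5.37 and 5.70 in control and 5.28 and 5.45 in MN. Most of this sum was Fdx1, also among the genes of electron supply below. Fdx1 alone was at 5.31 and 5.66 in control and 5.23 and 5.41 in MN, so the sum gives no separate reading of adrenal tissue. The adrenal markers Cyp11a1, Cyp11b2 and Mc2r had no testable signal. The part of adrenal tissue in the Cyp21a1 value was not tested.

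The 2 slides agreed in sign for 43 of the 65 genes. The share over all genes is not given here, so this count is no sign of agreement particular to P450 genes. Cyp2a4, Cyp3a13 and Cyp26b1 were above 0 by a like amount on both slides, while most Cyp2c genes lay on opposite sides of 0 on the slides.

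**Figure D4:**
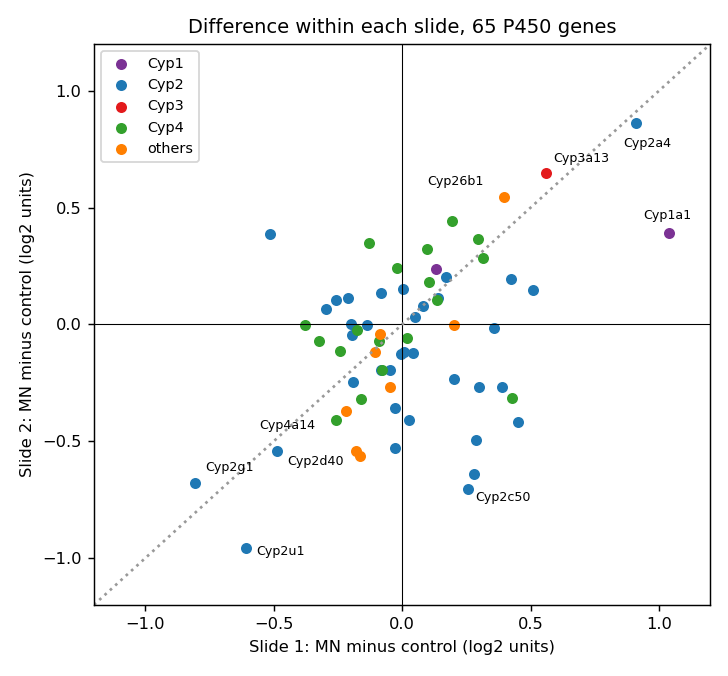
The x axis gives MN minus control on slide 1 and the y axis the same on slide 2, in log2 units, for the 65 tested P450 genes coloured by family group, with a dotted line where both are equal. Cyp2a4 (0.91 and 0.86), Cyp3a13 and Cyp26b1 lie near the line at the upper right, and Cyp2u1, Cyp2g1 and Cyp2d40 at the lower left.

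Genes that serve the P450 enzymes were read from the same fit, from lists chosen with earlier results of these data known. Of 18 genes of electron supply and haem, the median was -0.03. At an unadjusted p under 0.05 in limma 1 was higher (5.56%) and 0 lower, beside 3.54% and 3.49% of all genes. Por, which passes electrons to the microsomal P450 enzymes, differed by -0.11 ± 0.16. Alas1, the first enzyme of haem synthesis, was at 5.52 and 5.55 in control and 6.02 and 6.08 in MN. Both MN arrays lay above both controls, with a difference of 0.52 ± 0.13 (adjusted p = 0.543 in limma) and 0.25 from a second probe. Hmox1, which breaks haem down, gave 0.27 ± 0.14, and -0.12 from a second probe.

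The 19 P450 regulators had a median of -0.04. At an unadjusted p under 0.05 in limma 0 of them were higher or lower, beside 3.54% and 3.49% of all genes. The transcription factor gene Cebpa was at -0.45 ± 0.20. The 35 conjugation enzymes, which act on P450 products, had a median of -0.04. At the same threshold 1 was higher and 1 lower, 2.86% each way, near the 3.54% and 3.49% of all genes. The higher one was Nat8, an acetyltransferase of the proximal tubule, at 0.53 ± 0.16, and the lower one was Ugt2b35, a glucuronosyltransferase whose probe did not stand well above background in MN, so that only a bound can be had.

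The other eicosanoid enzymes had a median of -0.02 over 15 genes. At an unadjusted p under 0.05 in limma 1 was higher (6.67%) and 0 lower, beside 3.54% and 3.49% of all genes. The higher gene was Ptgis, prostacyclin synthase, itself a P450 enzyme by sequence but not by symbol. It was at -0.88 and -0.45 in control and 0.11 and 0.43 in MN, a difference of 0.93 ± 0.23 (adjusted p = 0.521 in limma), while a second probe gave -0.11. Tbxas1, on the same list, was at -0.15 ± 0.16, with both MN arrays below both controls. Ephx2, which hydrolyses the epoxides that Cyp2c and Cyp2j enzymes make, differed by 0.06 ± 0.17.

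Retinoid genes had a median of 0.03 over 16. At an unadjusted p under 0.05 in limma 2 were higher (12.5%) and 0 lower, beside 3.54% and 3.49% of all genes. The higher ones included Rbp4, the plasma carrier of retinol, at 2.03 ± 0.18 (adjusted p = 0.182 in limma). Crabp2, which carries retinoic acid in cells, was at -0.27 ± 0.18.

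Targets of PPAR alpha outside the P450 genes had a median of -0.22, beside -0.05 over all genes, with 17 of 21 negative where 61.4% of all genes were. At an unadjusted p under 0.05 limma gave 5 lower and 0 higher values, beside 3.49% and 3.54% of all genes. Pdk4, a kinase that restrains glucose oxidation, was at 2.73 and 2.73 in control and 1.07 and 1.17 in MN, a difference of -1.62 ± 0.14 (adjusted p = 0.157 in limma). Angptl4, an inhibitor of lipoprotein lipase, gave -0.84 ± 0.16 and the thioesterase gene Acot2 -0.68 ± 0.18. Ppara itself was at -0.22 ± 0.15. The 6 Cyp4a genes ran from -0.33 to 0.21 beside these, and whether they differ from other targets was not tested.

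Clock genes were read because Cyp2a4 and Cyp2a5 follow the day through Dbp and its relatives in mouse liver, as textbook background. The 17 clock genes had a median of 0.18; at an unadjusted p under 0.05 limma gave 5 with higher and 2 with lower values, beside 3.54% and 3.49% of all genes. Per2 and Ciart, repressors of the clock, differed by 1.15 ± 0.16 and 1.09 ± 0.20, and the activator Arntl by -1.14 ± 0.15, while Nr1d1 was at -0.59 ± 0.20. The output factors Dbp, Tef and Hlf gave 0.11 ± 0.16, 0.20 ± 0.15 and 0.18 ± 0.20, none at an unadjusted p under 0.05. Nfil3, on the same list, was among the higher ones at 0.56 ± 0.15, with 0.53 and 0.59 on the slides. The part of the time of sampling in the Cyp2a4 value was not tested.

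**Figure D5:**
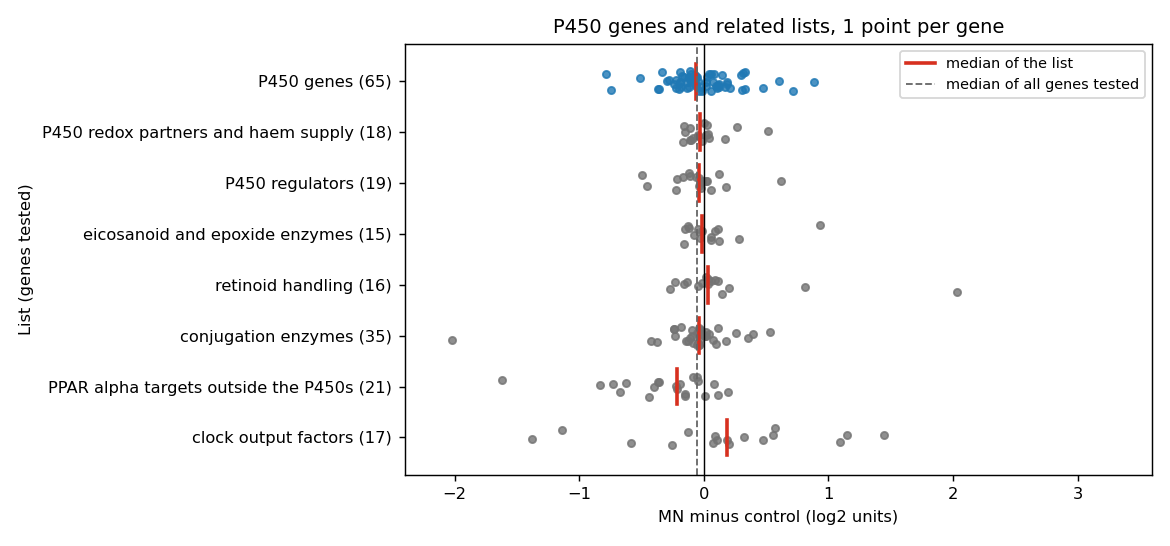
Each point is a gene, with MN minus control in log2 units on the x axis and the list on the y axis, the red bars marking list medians and the dashed line the median of all genes (-0.05). The P450 genes have a median of -0.06, and the targets of PPAR alpha (-0.22) and the clock genes (0.18) lie furthest from it.

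Markers of cell types were read from the same fit. The 10 tested loop and distal tubule markers and the 4 endothelial ones had medians of -0.02 and -0.03, beside -0.05 over all genes. All 22 proximal tubule markers, the main home of kidney P450 enzymes, were tested and had a median of -0.05, equal to that of all genes to 2 decimals. At an unadjusted p under 0.05 in limma 0 were higher and 2 lower (9.09%), beside 3.54% and 3.49% of all genes. The lower ones were Slc6a18 at -0.45, with -0.18 from a second probe, and Slc7a13 at -1.04, whose probe did not stand well above background in MN. Of 12 tested liver markers 10 were positive, where 38.6% of all genes were, and the summed log2 level of the list was 4.87 and 4.91 in control and 5.45 and 5.58 in MN. Alb was at 1.02 ± 0.20 and Ttr at 1.40 ± 0.23. The 2 negative ones were Cps1 at -0.46 ± 0.43 and Tat at -0.20 ± 0.30, so the list did not move as a whole. A further 2 liver markers, Apoa1 and Serpina3k, and the liver P450 genes Cyp1a2 and Cyp8b1 were not well above background on any array. Adipose markers were positive in 7 of 9, with a summed level of 0.57 and 0.47 in control and 2.70 and 2.88 in MN, and podocyte markers in 4 of 5. The part of these tissues in the P450 values was not tested.

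All arrays had 0 saturated spots. Control array 2 stood apart, with 79.5% of non-control spots well above background, against 63.1% to 65.9% on the others. Cyp7a1 and Cyp19a1, each well above background on 1 array, were so on control array 2, so detection near background was not alike between arrays. With 2 arrays per group, their number limits the precision of every value.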

How the data were processed

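The deposited scanner files give each spot's intensity, not log-transformed. Background subtraction and detrending were done by Agilent Feature Extraction 10.5.1.1, without scaling between arrays, per the file headers. Per the labels' protocols, 0.2 µg of total RNA was labelled with Cy3 and 0.6 µg of labelled RNA was fragmented. The deposited value table holds log2 values relative to the control mean, matched here to the scanner values with the replicate columns exchanged within both groups; it served only as an alternative, and its making is not given in the sources.

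Control and non-uniform spots were left out and spots of a probe averaged. Processed signals were log2-transformed and centred on the 75th percentile of each array. A probe was tested if well above background on both arrays of a group, and a gene was represented by its brightest probe. Differences were tested over 25293 genes with limma 3.58.1 under R 4.3.3 (two-sided moderated test, Benjamini-Hochberg, threshold 0.05, residual df 2, prior df 1.99). The scripts were tested on simulated data. Python 3.11.15 with pandas 2.3.3 and numpy 2.4.6 made the tables, and matplotlib 3.10.9 the plots. Names followed RefSeq (GRCm38.p6) through the probes' accessions where these matched. Per the file headers, probes were placed on mm9. Names of 4 P450 probes differed between the annotation versions of the 2 slides.

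Replicate numbers, slides and scans coincide, and arrays of the same number deviated together from the group means (correlation of 0.63 over 25293 genes). The alternatives were normexp background correction (offset 50), quantile and median scaling, the deposited table, no filter, a filter on all 4 arrays, the mean of probes, limma with trend and robust fitting, the slide as a replicate block, and each array left out. Members, lists and rules were chosen with earlier results of these data known. P450 genes were named if past the threshold, if among the 6 largest differences of a family group among genes well above background on all 4 arrays whose groups did not overlap, if detected in one group only, if their probes had opposite signs, or if on a list of genes with known roles. From related lists up to 4 genes with the largest differences could be named. Por, Ppara, Ephx2, Dbp, Tef and Hlf were named for their roles, and Nfil3 beside Dbp, Tef and Hlf. Cyp4a32, Cyp4b1-ps2 and Cyp4f41-ps were named with their relatives. A few genes are not reported here.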

Additional observations from a re-analysis of the deposited data

How the results depend on the processing

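Of the 36 named P450 genes tested, 27 kept their sign under all 9 alternatives and with each array left out, Cyp2a4, Cyp3a13, Cyp26b1, Cyp4a10, Cyp4a14 and Cyp4a31 among them. Under these alternatives 0 P450 genes passed after adjustment. Over all genes, limma called 5 as higher, and 15 with normexp background correction, 17 with quantile normalization, 11 with median scaling, 16 with trend and robust fitting, and 0 with no filter, with the filter on all 4 arrays, with the replicate block or with any array left out. At an unadjusted p under 0.05 the replicate block gave 6 higher and 4 lower P450 genes; with an array left out there were 1 to 3 higher and 0 to 2 lower. Normexp gave 2 lower and the mean of probes 0. The Cyp4 median was -0.056 with normexp and -0.021 with the filter on all 4 arrays. With an array left out it ran from -0.067 to 0.075, the Cyp2 median from -0.15 to 0.082 and that of other families from -0.26 to -0.074. Cyp20a1 was at 0.19 with the mean of probes and Ephx2 at -0.0046 with normexp. With an array left out, 9 genes crossed 0. Cyp27a1 ran from -0.40 to 0.27, Cyp2c23 from -0.035 to 0.12, Cyp2j13 from -0.29 to 0.35, Cyp2j5 from -0.042 to 0.20 and Cyp2r1 from -1.003 to 0.45. Cyp4a12b ran from -0.0061 to 0.25, Cyp4f13 from -0.090 to 0.049, Cyp7b1 from -0.14 to 0.34 and Ephx2 from -0.061 to 0.17. The cause of these shifts was not tested. Near background, values rest on the signal that the software subtracts, and the 26 untested genes have only a bound.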
